A study of Homo sapiens with 30 samples.

Results

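SETDB1-hairpin Caco2 cells sorted as KRT20-positive were compared with scramble-hairpin Caco2 cells in vehicle, gene by gene. The 6 libraries were chosen by their titles, Caco2-shSETDB1-KRT20-posi replicates 1 to 3 and Caco2-shScramble_Veh replicates 1 to 3, out of 30 libraries of colorectal cancer lines in the whole series. Caco2 is an established human colorectal cancer line. Expression was read with QuantSeq, which yields a short 3′ tag per polyadenylated transcript, from 500 ng of total RNA. The cells of all 6 libraries had been transduced with a retroviral hairpin vector and kept in puromycin, at 2 and later 1 ug/ml. The control carried a scrambled hairpin and is labelled vehicle. The other group carried a hairpin against SETDB1 and was sorted on KRT20. A pair of further groups of 3 libraries served as comparators: scramble cells in differentiation medium, which holds 10 uM troglitazone and 25 nM 1α,25-dihydroxyvitamin D3 from 3 days after transduction, and SETDB1-hairpin cells sorted as KRT20-negative. The labels do not give the medium of the SETDB1-hairpin cells, the number of hairpins or clones, or whether replicates were separate cultures. Hairpin, medium and sort therefore cannot be told apart in the comparison with vehicle, and the p-values cover only the spread among these libraries, which may be technical.

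SETDB1 is a methyltransferase that writes trimethylation on lysine 9 of histone H3, a silencing mark that it places with its partner ATF7IP and through TRIM28, which zinc finger proteins of the KRAB class bring to DNA. KRT20 is a keratin of the differentiated upper crypt and villus. Caco2 cells left to mature take on features of small intestinal enterocytes, with a brush border of microvilli, digestive hydrolases and lipoprotein secretion, and they also express many genes of the fetal liver. Troglitazone activates the fatty acid receptor PPARG, and 1α,25-dihydroxyvitamin D3 activates the vitamin D receptor VDR.

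The libraries held 6538087 to 8101904 counts in vehicle and 7157080 to 7599367 in KRT20-positive cells. Levels are given as CPM, counts scaled to a common library total with TMM factors, without regard to gene length, so they are compared between samples and not between genes. A count of 0 in 1 library allows up to 0.368 to 0.460 CPM (3 counts, counting error only). Summed over 12 epithelial markers, the 6 libraries lay between 5148 and 5292 CPM. The 12 leukocyte markers summed to 7 to 8.76 CPM and 11 fibroblast markers to 38.4 to 59.8 CPM, with vehicle and KRT20-positive values interleaved. KRT20-negative replicate 3, which helps to set the spread in the fit, stood apart from the other Caco2 libraries with a fibroblast marker sum of 634 CPM. CDX1, a defining colonic marker, was listed at 0 in 5 of the 6 libraries.

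SETDB1 itself, chr1:150926263-150964744 on GRCh38, is the gene that the hairpin targets. It stood at 32.2, 31.2 and 28.9 CPM in vehicle replicates 1 to 3 and at 19.7, 23.1 and 26.1 CPM in KRT20-positive replicates 1 to 3. The groups did not overlap, and the transcript fell by 0.42 on the log2 scale (SE 0.13, edgeR adjusted p = 0.0119). The fall was no longer called without KRT20-positive replicate 1 (edgeR adjusted p = 0.081). For scale, 18.4% of all tested genes were called lower. KRT20, the sorted gene, stood at 0.982, 0.807 and 1.23 CPM in vehicle and 34.96, 37.8 and 25.9 CPM in KRT20-positive cells. Since the sort used it, its difference is a check of the labels and no result.

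Across the transcriptome edgeR called 5265 of 13968 tested genes at an adjusted p under 0.05, or 37.7%. Without KRT20-negative replicate 3 the number was 6013. Of the 5265 genes, 2692 were higher in KRT20-positive cells (19.3% of tested genes) and 2573 lower (18.4%). Changes of at least 2-fold were less balanced, with 998 genes higher (7.14%) and 403 lower (2.89%). At 8-fold or more, 147 were higher (1.05%) and 33 lower (0.236%). The 3 libraries of one group lay wholly above or below the other 3 in 51.3% of tested genes, and the median log2 fold change of all tested genes was 0.0076.

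The direction of the calls differed by expression level. Of the 10 equal classes of mean level, the lowest had 17.5% of its genes called higher and 5.37% lower. The highest class had 19.5% called higher and 35.8% lower. The median size of a called change, in either direction, went from 1.93 on the log2 scale in the lowest class to 0.397 in the highest. Genes called higher held 15.97% to 16.2% of all tags in vehicle and 24.9% to 25.2% in KRT20-positive cells. Genes called lower held 35.0% to 35.1% and 25.2% to 25.3%. These shares describe the called genes and are no test.

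**Figure D1:**
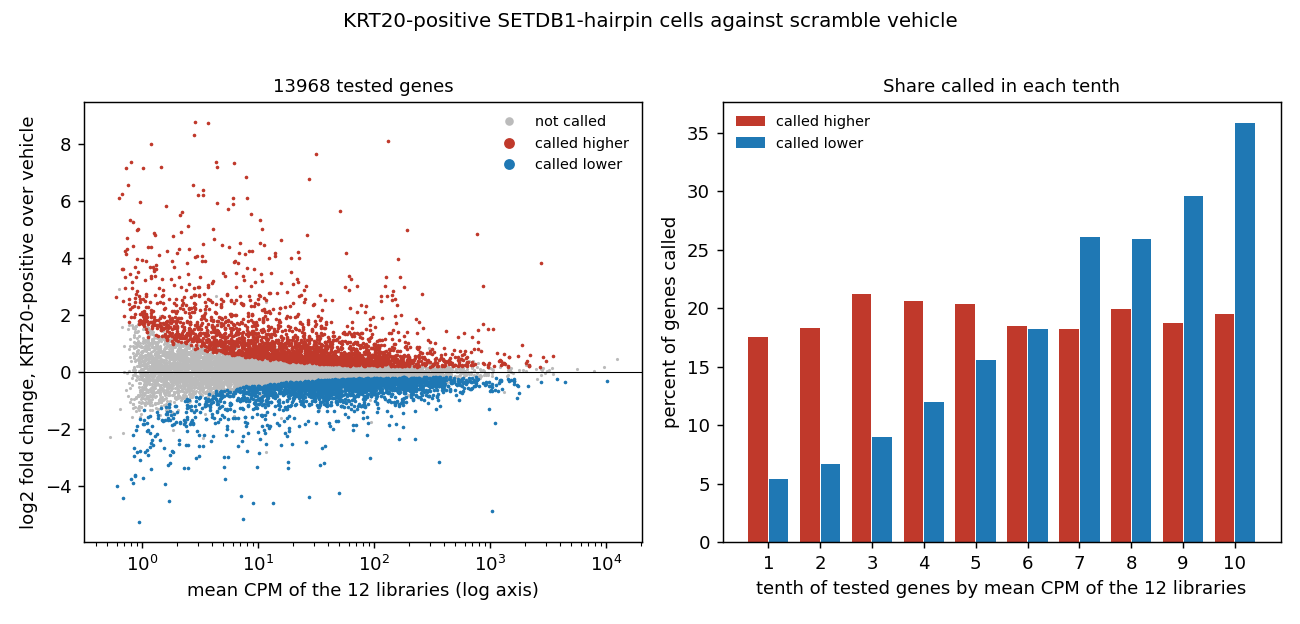
Left, the log2 fold change of each tested gene, KRT20-positive over vehicle, against its mean level in CPM over 12 Caco2 libraries (log axis). Right, the percent of genes called higher and lower in each of 10 classes of that level: the share called lower goes from 5.37% to 35.8% while the share called higher stays between 17.5% and 21.2%.

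The groups of genes described from here on come from lists written for intestinal, hepatic, metabolic and stress functions. For each list the text gives the members that passed the low-count filter, the numbers called higher and lower, and, for lists of 10 or more tested members, the median log2 fold change. The numbers are to be read against 19.3% higher and 18.4% lower among all tested genes. These shares are not matched for level: the share called lower was 5.37% in the lowest class of level and 35.8% in the highest. A list of mostly abundant or mostly scarce genes can differ from 18.4% for that reason, which was not tested. Where a list gives 0 in a direction against vehicle, edgeR gave 0 members at an unadjusted p under 0.05 as well, and DESeq2 called 0, except for 1 fibroblast and endothelial marker that was lower with DESeq2. The filter used all 12 libraries. A gene near 0 in vehicle could therefore be tested only if it was higher in another group, which favours rises in the counts. In a bulk library, fewer cells of a type and less RNA per cell cannot be told apart.

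**Figure D2:**
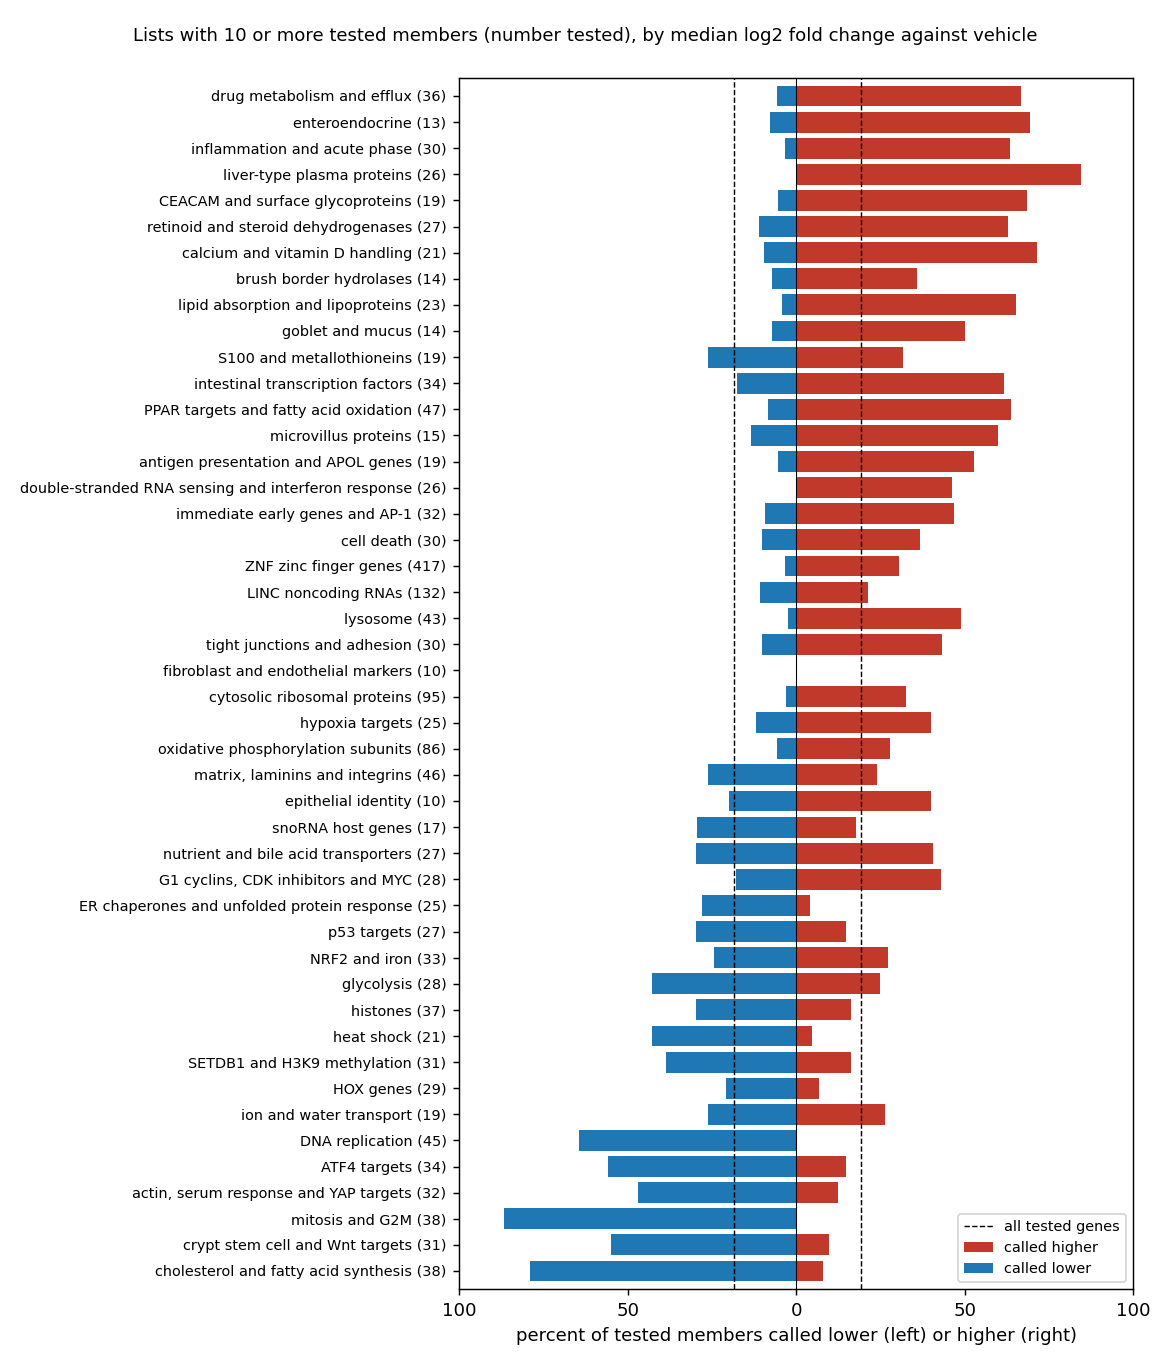
Percent of tested members called higher and lower in KRT20-positive cells against vehicle, for each list with at least 10 tested members. Dashed lines mark 19.3% and 18.4%, the shares among all tested genes: liver-type plasma proteins reach furthest on the higher side and mitosis genes on the lower side.

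Digestive enzymes of the enterocyte brush border moved unevenly. Of 14 tested brush border hydrolases 5 rose and 1 fell (median log2 0.69). Lactase, LCT (chr2:135787840-135837180, GRCh38), the enzyme that splits milk sugar, had 2.70, 1.88 and 3.68 CPM in the vehicle libraries and 140.0, 132 and 136 CPM in the KRT20-positive ones. All 3 KRT20-positive libraries lay far above the vehicle range (log2 5.63, SE 0.15, edgeR adjusted p = 1.07e-18). The meprin subunit MEP1A rose 3.19-fold. DPP4, a dipeptidyl peptidase of the same membrane, went the other way, from 66.1 CPM (SD 5.91) to 40.2 (SD 3.80). The sucrase-isomaltase gene SI and the aminopeptidase ANPEP stood at 1.95 and 4.93 CPM in KRT20-positive cells and were not called, although both were called when KRT20-negative replicate 3 was left out of the fit.

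Of 15 tested genes that build the microvillus, 9 rose and 2 fell (median log2 0.53; 1 fell without vehicle replicate 3 or KRT20-positive replicate 1). CDHR5, a protocadherin that links neighbouring microvillus tips, rose from 33.1 CPM (SD 3.10) to 83.6 (SD 2.86). EPS8, BAIAP2L2 and the bundling protein PLS1 rose by 0.59, 0.72 and 0.69 on the log2 scale. The tip-link scaffold USH1C rose by 0.37. Villin, VIL1, a bundler of the actin core, stood at 84.4, 85.9 and 88.9 CPM in vehicle and 73.8, 85.8 and 81.5 CPM in KRT20-positive cells, groups that overlapped.

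Of 23 tested genes of fat uptake and lipoprotein assembly 15 rose and 1 fell (median log2 0.67). The fatty acid binding protein FABP1 had 65.1, 57.3 and 66.8 CPM in vehicle and 1895, 1659 and 1873 CPM in KRT20-positive cells (log2 4.84, SE 0.10, edgeR adjusted p = 1.11e-20). MTTP (chr4:99563761-99623999, GRCh38), which loads lipid onto apolipoprotein B, had 5.16, 3.36 and 2.61 CPM in vehicle and 60.3, 58.9 and 64.2 CPM in KRT20-positive cells (log2 4.01, SE 0.20, edgeR adjusted p = 6.14e-14). In both genes every KRT20-positive library exceeded every vehicle library by more than 10-fold. The apolipoproteins APOA2 and APOH reached 1282 and 286 CPM from 396 and 36.4. SLC27A2, which activates very long fatty acids, rose 6.32-fold.

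**Figure D3:**
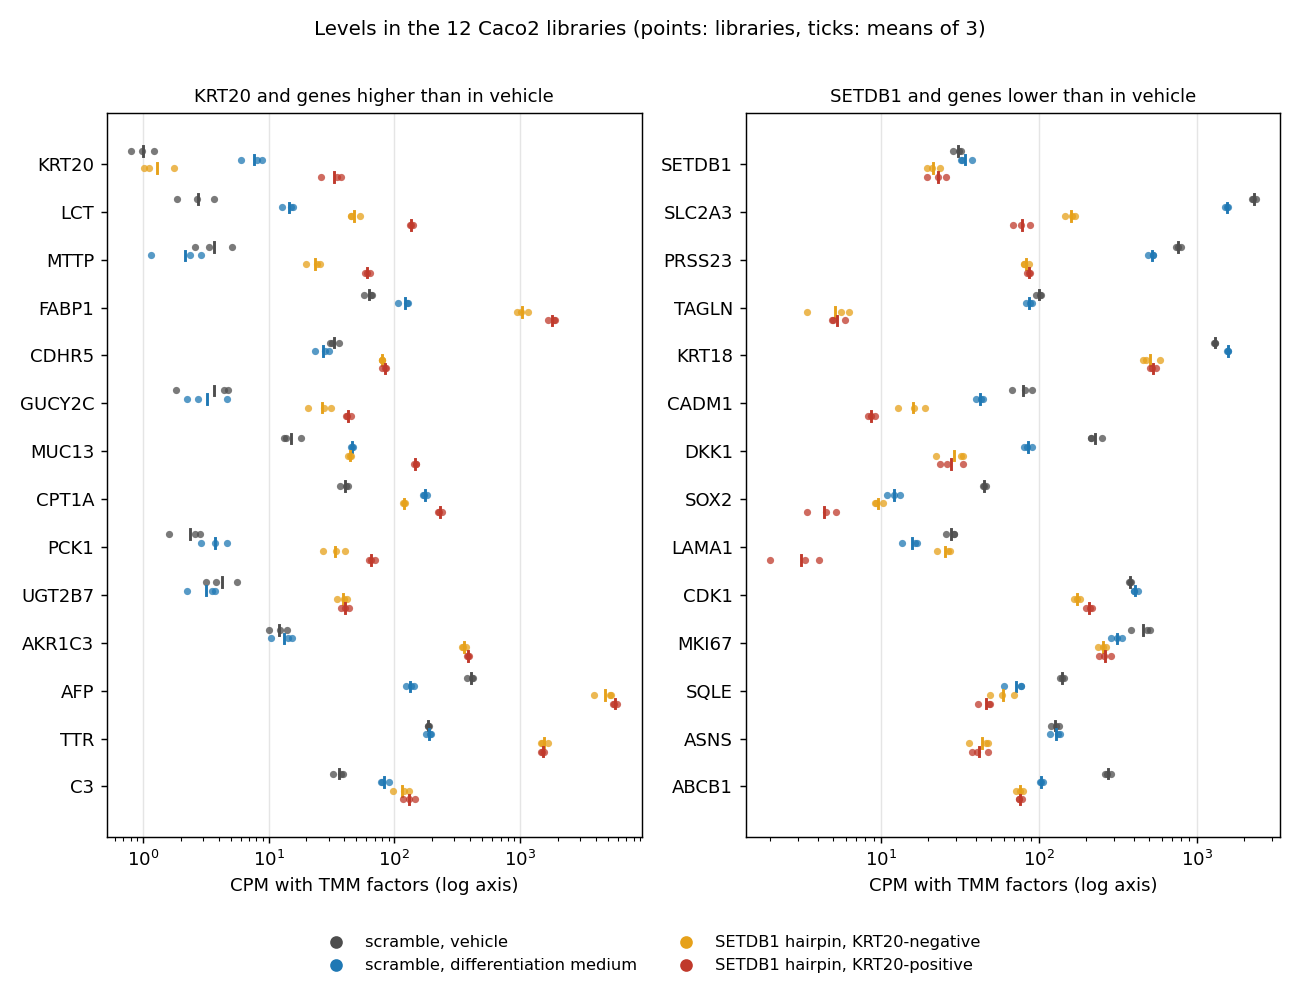
Level in CPM (log axis) of 28 genes in each of the 12 Caco2 libraries, grouped as vehicle, differentiation medium, KRT20-negative and KRT20-positive. In the left panel the KRT20-positive points of KRT20, LCT, MTTP, FABP1, PCK1 and AKR1C3 lie well above the vehicle points; in the right panel those of SLC2A3, TAGLN, SOX2 and LAMA1 lie well below.

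Of 27 tested nutrient and bile acid transporters 11 rose and 8 fell (median log2 0.018). SLC2A3 (chr12:7919230-7936275, GRCh38), a high-affinity glucose transporter that shares sequence with SLC2A14, had 2287, 2384 and 2257 CPM in vehicle and 68.8, 76.95 and 88.04 CPM in KRT20-positive cells. It fell by 4.89 on the log2 scale (SE 0.089, edgeR adjusted p = 6.97e-22), the largest fall in CPM of any tested gene. The amino acid carrier SLC7A5 fell by 0.97. SLC10A2, the ileal bile acid importer, had 3 counts in the 3 vehicle libraries together and 155 in KRT20-positive cells, a ratio of 50.8 (95% counting interval 17.1 to 249). The peptide carrier SLC15A1 rose from 6.29 to 12.01 CPM, the lactate exporter SLC16A3 2.50-fold and the manganese exporter SLC30A10 8.08-fold. The basolateral glucose transporter SLC2A2 stood at 2.11 and 2.09 CPM and was not called.

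Ion and water transport genes were also mixed, with 5 of 19 higher and 5 lower (median log2 −0.34). GUCY2C, the receptor for guanylin, had 4.79, 4.44 and 1.84 CPM in vehicle and 41.8, 45.6 and 41.01 CPM in KRT20-positive cells. The chloride-bicarbonate exchanger SLC26A3 rose 5.82-fold and the carbonic anhydrase CA12 5.0001-fold. On the lower side stood genes of chloride secretion: the cotransporter SLC12A2 fell from 262 CPM (SD 9.67) to 114 (SD 10.2). The potassium channel subunit KCNE3 (log2 −0.70), the chloride channel CFTR (−0.60) and the sodium pump subunit ATP1B1 (−1.19) fell with it.

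Surface glycoproteins of differentiated colonocytes rose, with 13 of 19 higher and 1 lower (median log2 0.84). MUC13, a transmembrane mucin, had 18.1, 13.3 and 13.8 CPM in vehicle and 144, 148 and 148 CPM in KRT20-positive cells (log2 3.28, SE 0.11, edgeR adjusted p = 2.54e-17). LGALS4, a galectin of lipid rafts at the brush border, rose from 3 counts over the vehicle libraries to 250 (ratio 81.96, 95% counting interval 27.7 to 400.1). CEACAM5 reached 46.1, 40.3 and 47.6 CPM against 1.35, 1.61 and 2.46 in vehicle. The tetraspanin TSPAN8 rose 2.05-fold and TM4SF20 4.10-fold. Paralogs of the CEACAM family share sequence, and how the authors assigned such tags is not given in the sources used here.

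Of 14 goblet and mucus genes 7 rose and 1 fell (median log2 0.55). FCGBP, a mucus protein that binds the mucin network, had 2.09, 0.941 and 1.53 CPM in vehicle and 33.7, 28.8 and 26.1 in KRT20-positive cells. MUC2, the gel-forming mucin, went from 0.516 (SD 0.518) to 5.24 CPM (SD 1.09), and BCAS1 from 24.5 to 71.4. CREB3L1 was the 1 member that fell (18.9 to 11.4 CPM). The trefoil peptide TFF3 rose 1.24-fold and was not called without vehicle replicate 1.

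Of 13 tested enteroendocrine genes 9 rose and 1 fell (median log2 1.38), while 17 more of the list did not pass the filter, hormone genes such as GCG, PYY and SST among them. PAX4, INSM1, NKX2-2 and CHGA were near 0 in vehicle and passed the filter through other groups, so their rises are no independent support. PAX4, a factor that commits precursors to endocrine fates, had 0 counts in vehicle and 6.72, 6.63 and 7.07 CPM in KRT20-positive cells, at least 50.2-fold higher against 3 counts over the vehicle group. INSM1, which drives endocrine differentiation, had 0.123, 0 and 0.460 CPM in vehicle and 11.8, 15.7 and 13.4 CPM. NKX2-2 rose from 3 to 117 counts (ratio 38.4, 95% counting interval 12.8 to 189). CPE, which trims prohormones, rose from 42.1 CPM (SD 5.76) to 132 (SD 5.63). Among 6 tuft and Paneth genes 3 rose and 0 fell. PLA2G2A, a Paneth cell phospholipase, went from 8.45 to 49.1 CPM and lysozyme, LYZ, from 51.4 to 70.9.

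Crypt stem cell and Wnt target genes fell, 17 of 31 lower and 3 higher (median log2 −0.74). DKK1, a secreted Wnt inhibitor that Wnt signalling itself induces, had 215, 251 and 216 CPM in vehicle and 26.3, 33.04 and 23.7 CPM in KRT20-positive cells. LGR5, the R-spondin receptor of crypt base stem cells, had 21.001, 18.02 and 14.6 CPM in vehicle and 6.17, 5.97 and 5.11 CPM (log2 −1.64, SE 0.22, edgeR adjusted p = 2.39e-06). The feedback inhibitors AXIN2 (log2 −1.31) and NKD1 (−1.72), the ligands BMP4 (−1.83) and BMP7 (−1.70) and the receptor TNFRSF19 (−2.42) fell. ASCL2, a stem cell factor, fell from 155 to 76.5 CPM. MYC, another Wnt target, had 24.1, 31.5 and 23.8 CPM in vehicle and 24.8, 29.1 and 25.2 CPM, groups that overlapped.

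Transcription factors of intestinal identity leaned higher, 21 of 34, with 6 lower (median log2 0.54). CDX2, the master factor of intestinal fate, had 435, 459 and 459 CPM in vehicle and 657, 686 and 699.8 CPM (log2 0.60, SE 0.068, edgeR adjusted p = 2.26e-07). ISX, which responds to retinoic acid, rose 2.89-fold, the epithelial factor ELF3 1.87-fold and the thyroid hormone receptor THRB 1.99-fold. CREB3L3, a factor of lipid metabolism in liver and gut, rose from 3.18 CPM (SD 1.08) to 22.4 (SD 1.26). HNF4A stood at 442 and 487 CPM and was not called, apart from the fit of the 2 groups alone. SOX2, a factor of foregut and pluripotent cells, had 45.3, 44.3 and 46.5 CPM in vehicle and 3.43, 4.51 and 5.24 CPM in KRT20-positive cells (log2 −3.36, SE 0.16, edgeR adjusted p = 4.86e-14).

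Vitamin D targets and calcium handling genes rose in 15 of 21 members and fell in 2 (median log2 0.80; 1 fell under library totals, DESeq2 or without vehicle replicate 2 or 3 or KRT20-positive replicate 2 or 3). CYP24A1, the vitamin D hydroxylase, had 0.982, 0.269 and 0.614 CPM in vehicle and 183, 185 and 170.1 CPM in KRT20-positive cells. In scramble cells given the VDR ligand it had 197, 193 and 192 CPM. The calcium channel TRPV6 had 0 vehicle counts and was at least 37.4-fold higher. CLDN2, a claudin that lets cations through, rose 4.72-fold, CLMN 6.87-fold and SLC37A2 4.79-fold. VDR itself fell from 26.7 CPM (SD 1.93) to 15.8 (SD 1.36).

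PPAR targets and fatty acid oxidation genes rose in 30 of 47 members and fell in 4 (median log2 0.54). CPT1A, which admits fatty acids to mitochondria, had 42.7, 41.2 and 36.99 CPM in vehicle and 228, 221 and 240.0 CPM. PDK4, which shuts glucose carbon out of the citric acid cycle, rose 43.1-fold, TXNIP 4.34-fold and the lipid droplet coat PLIN2 2.73-fold. In each of these genes the 3 KRT20-positive libraries lay above all vehicle libraries.

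Sterol and fatty acid synthesis fell, 30 of 38 members lower and 3 higher (median log2 −0.79). SCD, which desaturates fatty acids, had 1907, 1933 and 1841 CPM in vehicle and 519, 543 and 574 CPM in KRT20-positive cells (log2 −1.80, SE 0.078, edgeR adjusted p = 7.15e-15). Fatty acid synthase FASN fell from 496 to 251 CPM and mevalonate kinase MVK from 121 to 46.2. The list's highest riser was GPAM, the first enzyme of triglyceride synthesis, at 72.5 and 202 CPM.

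Glycolysis genes fell more often than they rose, 12 against 7 of 28 (median log2 −0.081). Pyruvate kinase PKM (log2 −0.74), the phosphofructokinase PFKP (−0.91) and lactate dehydrogenase LDHA (−0.48) fell. PCK1, which makes phosphoenolpyruvate for gluconeogenesis, had 2.82, 1.61 and 2.61 CPM in vehicle and 70.1, 64.7 and 62.6 CPM. Of 25 hypoxia targets 10 rose and 3 fell (median log2 0.10), with NDRG1 at 69.2 and 462 CPM. VEGFA, a main target of the hypoxia factors, stood at 139 (SD 4.61) and 143 CPM (SD 2.66) and was not called.

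The list of drug metabolism, enzymes that modify drugs, hormones and bile products together with efflux pumps, rose in 24 of 36 members and fell in 2 (median log2 1.51). UGT1A1, the bilirubin conjugating enzyme, went from 3 counts over vehicle to 390 (ratio 128, 95% counting interval 43.4 to 623), and its 3′ end is shared with the other UGT1A genes. The glutathione transferases GSTA1 and GSTA2, near-identical neighbours, rose 10.1-fold and 6.33-fold, and the esterase CES1 3.41-fold. ABCB1, the efflux pump P-glycoprotein, ran against the list, with 273, 287 and 264 CPM in vehicle and 78.8, 75.5 and 74.8 CPM in KRT20-positive cells (log2 −1.85, SE 0.077, edgeR adjusted p = 3.03e-15).

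Retinoid and steroid dehydrogenases rose in 17 of 27 members and fell in 3 (median log2 0.81). AKR1C3, an aldo-keto reductase of steroids and prostaglandins, had 14.1, 12.2 and 10.1 CPM in vehicle and 386, 381 and 396 CPM in KRT20-positive cells. RBP2, the retinol carrier of the enterocyte, rose 4.005-fold, HSD3B1, which makes active steroid hormones, 4.92-fold and the alcohol dehydrogenase ADH4 3.21-fold. AKR1C1 and AKR1C2, paralogs in the NRF2 and iron list, rose 7.96-fold and 10.3-fold. That list was otherwise split (9 of 33 higher, 8 lower, median log2 −0.058). The ferritin subunits FTH1 and FTL rose from 555 to 1581 CPM and from 1224 to 2363.

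Plasma proteins made by liver had the highest share of rises, 22 of 26 with 0 lower (median log2 1.04; 1 lower without vehicle replicate 3). Alpha-fetoprotein, AFP (chr4:73431138-73456174, GRCh38), the main plasma protein of the fetus, had 415, 376 and 421 CPM in vehicle and 5944, 5541 and 5599 CPM in KRT20-positive cells, the largest rise in CPM of any tested gene (log2 3.82, SE 0.10, edgeR adjusted p = 6.89e-17). The thyroxine carrier TTR had 184, 189 and 184 CPM and 1466, 1503 and 1563 CPM. ALB rose 3.60-fold, the fetal glycoprotein AHSG 2.77-fold and the fibrinogen chains FGA and FGB 3.30-fold and 5.81-fold. AFM, of the same family as ALB, is not counted as lower in this list. It went from 48 counts over the vehicle libraries to 2 over the KRT20-positive ones, and its edgeR result is not reported here. GC, the vitamin D carrier, which was in the vitamin D list, had 0.246, 0.269 and 0.614 CPM in vehicle and 74.3, 76.6 and 76.8 CPM.

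Inflammatory and acute phase genes rose in 19 of 30 members and fell in 1 (median log2 1.32). The neutrophil chemokine CXCL1 had 14.9, 10.4 and 12.1 CPM in vehicle and 96.5, 91.9 and 89.5 CPM, and CCL20, which attracts dendritic cells and lymphocytes, 19.3, 19.9 and 15.96 CPM and 313, 275 and 278 CPM. Complement C3 rose 3.58-fold and the near-identical orosomucoids ORM1 and ORM2 5.89-fold and 5.46-fold. LCN2, which withholds iron from bacteria, went from 1 to 198 counts (ratio 195, 95% counting interval 34.5 to 7730.0), and SAA2 from 1 to 222 (ratio 218, 95% counting interval 38.8 to 8662). CXCL8 was not called at 0.862 and 1.97 CPM, except when KRT20-negative replicate 3 was left out or only the 2 groups were fitted. Of 4 tested leukocyte markers 2 rose, LYZ and LAPTM5 (the latter at 1.04 and 2.94 CPM, not called without vehicle replicate 1); the part of other cells in these values was not tested.

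Of 38 tested mitosis genes 33 fell and 0 rose (median log2 −0.54). CDK1, the kinase of mitotic entry, had 379.6, 384 and 375 CPM in vehicle and 210.4, 199.6 and 219 CPM in KRT20-positive cells (log2 −0.86, SE 0.069, edgeR adjusted p = 6.41e-10). The proliferation marker MKI67 had 486, 384 and 509.5 CPM and 259.5, 239.6 and 286 CPM. The phosphatase CDC25B (log2 −1.14), the kinetochore motor CENPE (−1.04) and cyclin B1, CCNB1 (−0.69), also fell. No KRT20-positive library of CDK1 or MKI67 reached the vehicle range, but the falls were smaller than 2-fold.

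Many promoters of mitotic genes carry a CHR element, the letters TTTGAA, where the DREAM and MuvB complexes are known to act, often near a CCAAT box. RefSeq promoters on GRCh38.p14, the 250 bases before the start, were at hand for 32 of the mitosis list, and 16 of them (50%) held TTTGAA on either strand, against 8.55% of 10129 tested genes with a promoter and 13.6% of all 27305. CCAAT or its reverse ATTGG was in 23 of 32 (71.9%), against 35.1% and 33%. Other lists held it as often, such as endoplasmic reticulum chaperones (18 of 22, 81.8%) and HOX genes (10 of 12, 83.3%). The letters are a description and no site of binding. They are shown for CDK1, MKI67 and KIF11, a spindle motor that had 42.8 and 24.2 CPM. All were chosen after their values were seen, by adjusted p among mitosis genes called lower whose promoters held both elements. They are therefore not typical promoters of the list. TTTGAA or its reverse TTCAAA, and CCAAT or ATTGG, are in capitals. In MKI67 the capitals of TTTGAA run on into an overlapping ATTGG.
CDK1, chr10:60778081-60778330, plus strand: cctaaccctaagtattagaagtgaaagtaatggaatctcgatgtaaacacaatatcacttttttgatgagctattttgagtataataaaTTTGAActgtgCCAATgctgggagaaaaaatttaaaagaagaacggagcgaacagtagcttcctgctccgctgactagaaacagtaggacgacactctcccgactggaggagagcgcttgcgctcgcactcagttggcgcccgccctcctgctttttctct
MKI67, chr10:128126424-128126673, minus strand: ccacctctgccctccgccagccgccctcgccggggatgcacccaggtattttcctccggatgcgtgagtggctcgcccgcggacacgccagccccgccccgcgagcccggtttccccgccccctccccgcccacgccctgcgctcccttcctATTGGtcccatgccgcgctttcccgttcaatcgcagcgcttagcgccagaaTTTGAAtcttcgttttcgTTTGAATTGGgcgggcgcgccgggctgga
KIF11, chr10:92592880-92593129, plus strand: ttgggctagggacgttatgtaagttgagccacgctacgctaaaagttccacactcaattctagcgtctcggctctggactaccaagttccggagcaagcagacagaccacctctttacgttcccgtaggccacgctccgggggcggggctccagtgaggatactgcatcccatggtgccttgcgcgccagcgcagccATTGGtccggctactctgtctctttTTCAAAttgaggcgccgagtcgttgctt
Among mitosis genes, 14 of 16 with TTTGAA fell (median log2 −0.67), as did 13 of 16 without it (median −0.53). Among all 866 tested genes with TTTGAA 22.3% fell and 18.4% rose, against 19% and 19.1% of all tested genes with a promoter.

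DNA replication genes fell in 29 of 45 members and rose in 0 (median log2 −0.37). Thymidylate synthase TYMS (log2 −0.76), thymidine kinase TK1 (−0.84), the helicase subunits MCM4 (−0.64) and MCM2 (−0.47) and the sliding clamp PCNA (−0.60) fell. Around the G1 decision 12 of 28 genes rose and 5 fell (median log2 0.018). The CDK inhibitors CDKN1A and CDKN1C had 7.12, 6.72 and 8.44 and 7.86, 7.53 and 7.83 CPM in vehicle and 30.2, 27.995 and 29.1 and 31.1, 29.6 and 27.3 CPM in KRT20-positive cells. Cyclin D2, CCND2, had 133, 120.1 and 131 CPM and 30.2, 29.5 and 33.7 CPM, and CCND1 (log2 −0.68) and its partner CDK6 (−0.86) fell as well. The antiproliferative TOB1 rose 1.98-fold.

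The p53 targets had 4 of 27 higher and 8 lower (median log2 −0.034). CDKN1A, BTG2 and the death gene BBC3 rose, the last 1.61-fold, while TIGAR (log2 −1.02), GADD45A (−0.74) and the nuclease AEN (−0.85) fell. MDM2, which degrades p53 and is its direct target, stood at 129 and 119 CPM and was not called. In the cell death list 11 of 30 rose and 3 fell (median log2 0.32). The inflammatory caspase CASP1 rose 6.11-fold, and BCL2L1, a survival protein, fell by 0.88.

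ATF4 targets, which supply amino acids and charge transfer RNAs under stress, fell in 19 of 34 members and rose in 5 (median log2 −0.42; 3 rose without vehicle replicate 1). Asparagine synthetase, ASNS, had 129, 121 and 134 CPM in vehicle and 40.9, 37.9 and 47.7 CPM in KRT20-positive cells (log2 −1.60, SE 0.11, edgeR adjusted p = 2.34e-11). The aminotransferase GPT2 (log2 −1.36), the folate enzyme MTHFD2 (−1.13), the glycyl synthetase GARS (−0.91) and the glycoprotein STC2 (−1.09) fell. ATF4 is known to bind a composite element written TGATGNAA, which 3 of 23 promoters of the list held (13%), against 1.38% of tested genes and 3.19% of all promoters. The share was not particular to this list: liver-type plasma proteins, which rose, held it in 3 of 22 promoters (13.6%). ASNS was one of the 3 and was chosen as a called fall, after its values were seen. Its match is in capitals.
ASNS, chr7:97872409-97872658, minus strand: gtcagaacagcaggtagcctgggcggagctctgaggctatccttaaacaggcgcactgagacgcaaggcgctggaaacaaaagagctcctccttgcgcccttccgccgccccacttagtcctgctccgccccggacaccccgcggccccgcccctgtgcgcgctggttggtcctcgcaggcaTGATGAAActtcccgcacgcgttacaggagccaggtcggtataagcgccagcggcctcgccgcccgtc
Of all 140 tested genes with these letters 21.4% fell and 20.7% rose.

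Chaperones of the endoplasmic reticulum gave 1 of 25 higher and 7 lower (median log2 −0.00031), where the number higher was 2 to 4 with a replicate block, in the fit of the 2 groups alone, or without KRT20-negative replicate 3 or KRT20-positive replicate 1 or 2. XBP1, a factor of the unfolded protein response, rose 1.41-fold and HYOU1 fell by 0.51. BiP, HSPA5, stood at 1339 and 1467 CPM and was not called. Heat shock genes fell in 9 of 21 members and rose in 1 (median log2 −0.20; 0 rose without vehicle replicate 1). The mitochondrial chaperonin HSPD1 had 2280.2, 2137 and 2368 CPM in vehicle and 1161, 1170.5 and 1272 CPM, and HSP90AA1 fell by 0.51. The inducible HSPA1A and DNAJB1 were not called (log2 −0.057 and −0.02).

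Genes of the contractile cytoskeleton and targets of the factors SRF and YAP fell in 15 of 32 members and rose in 4 (median log2 −0.43). TAGLN, an actin-binding protein of smooth muscle, had 101, 104 and 96.5 CPM in vehicle and 5.89, 4.91 and 4.98 CPM in KRT20-positive cells. CALD1, a regulator of contraction (log2 −1.05), VCL, which anchors actin (−1.13), and TEAD1, the partner of YAP (−1.21), fell. MYBPH, a myosin-binding protein, went from 18.04 (SD 2.73) to 0.499 CPM (SD 0.650). CTGF and CYR61, a pair of YAP targets, parted: CTGF rose 1.97-fold and CYR61 fell by 1.04. The CArG box, to which SRF binds, was found in 5 of 24 promoters of the list (20.8%), against 0.977% of tested genes and 1.14% of all. That of CNN2, a calponin at 60.7 CPM in vehicle and 29.3 in KRT20-positive cells, is shown with the box in capitals and was chosen after its values were seen.
CNN2, chr19:1026358-1026607, plus strand: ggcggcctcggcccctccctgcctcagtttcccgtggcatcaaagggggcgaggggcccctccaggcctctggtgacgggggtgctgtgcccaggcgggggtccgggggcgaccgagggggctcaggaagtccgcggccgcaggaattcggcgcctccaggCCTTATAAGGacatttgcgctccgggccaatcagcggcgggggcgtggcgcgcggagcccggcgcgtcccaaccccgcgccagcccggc
Of all 99 tested genes with the box 19.2% fell and 22.2% rose.

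Matrix and adhesion genes were divided, with 11 of 46 higher and 12 lower (median log2 0.1). LAMA1 (chr18:6941744-7117814, GRCh38), a laminin chain of early basement membranes, had 25.9, 29.2 and 29.01 CPM in vehicle and 3.29, 1.99 and 4.06 CPM in KRT20-positive cells (log2 −3.16, SE 0.19, edgeR adjusted p = 4.44e-12). The integrin subunit ITGA2 fell by 0.95. ADAMTS15, a protease of matrix proteoglycans, rose 8.67-fold, the integrin ITGB6 9.30-fold and the inhibitor TIMP2 2.04-fold. Fibronectin, FN1, had 9379, 10413 and 8689 CPM and 6637, 8232 and 7801 CPM, a fall (log2 −0.33) that was not called without KRT20-positive replicate 1 or vehicle replicate 2, with a replicate block or without the low-count filter. None of 10 tested fibroblast and endothelial markers was called by edgeR (median log2 0.17). In the fit of the 2 groups alone, or without KRT20-negative replicate 3, LUM was called higher and PDGFRA lower.

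Of 6 tested keratins 3 fell, KRT18, KRT8 and KRT15, and 1 was called higher, KRT20, on which the cells were sorted (2 higher without vehicle replicate 1). KRT18 had 1293, 1300.1 and 1311 CPM in vehicle and 507, 519 and 554 CPM in KRT20-positive cells (log2 −1.31, SE 0.077, edgeR adjusted p = 2.24e-12), and its partner KRT8 fell by 0.88. KRT19 stood at 812 and 728 CPM and was not called. Of 10 tested genes of epithelial identity, a list that shares members with others, 4 rose and 2 fell (median log2 0.044). Junction genes rose in 13 of 30 members and fell in 3 (median log2 0.18), with E-cadherin, CDH1, at 1177 CPM (SD 47.1) and 1694 (SD 18.4). The scaffold TJP3 rose 1.80-fold, the connexin GJB1 1.82-fold, and the desmosome gene PKP2 fell by 0.98.

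The machinery of H3K9 methylation fell in 12 of 31 members and rose in 5 (median log2 −0.21; 3 rose without vehicle replicate 2 or KRT20-positive replicate 3). ATF7IP, which holds SETDB1 in the nucleus, had 117, 124 and 122 CPM in vehicle and 292, 314 and 319 CPM in KRT20-positive cells, and its relative ATF7IP2 rose 2.10-fold. The heterochromatin protein CBX1 (log2 −0.65), the DNA methyltransferase DNMT3B (−0.98) and the remodeller HELLS (−0.56) fell. TRIM28 fell by 0.36, a call lost without KRT20-positive replicate 3.

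Zinc finger genes leaned higher. By symbol, and counting a few antisense and read-through names, 127 of 417 tested ZNF genes rose and 14 fell (median log2 0.30; 8 fell without vehicle replicate 3). ZNF91, a KRAB protein of primate genomes, had 7.25, 7.53 and 6.91 CPM in vehicle and 38.9, 36.8 and 40.6 CPM in KRT20-positive cells. ZNF117 reached 44.3 CPM (SD 2.24) from 2.40 (SD 0.255), ZNF69 15.96 from 0.846 and ZNF577 19.1 from 3.63. Members of this family share sequence, so single values are uncertain.

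Many KRAB zinc finger genes lie in clusters on chromosome 19. Of 191 tested ZNF genes there, 85 rose (44.5%) and 1 fell (0.524%), with a median log2 of 0.55. On other chromosomes 40 of 223 rose (17.9%) and 13 fell (5.83%), with a median of 0.16. Among the other 714 genes of chromosome 19, 22.3% rose and 14.7% fell, and among 11960 other genes elsewhere 18.9% and 19.5%. These shares are descriptions without a test. Over all genes, chromosomes 19 and 4 had the highest shares of rises (27% and 26%) and chromosome 18 the lowest (11.7%). Positions came from GENCODE 29 on GRCh38 for 13088 of 13968 tested genes, matched by symbol.

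**Figure D4:**
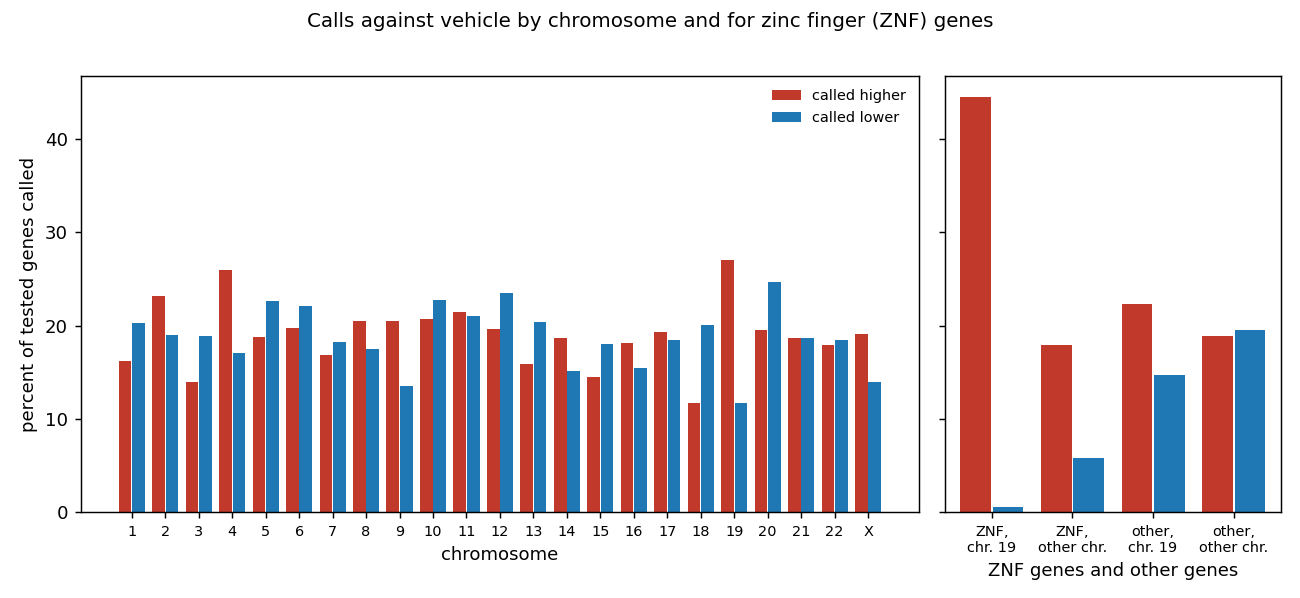
Percent of tested genes called higher and lower in KRT20-positive cells against vehicle, by chromosome. Chromosome 19 stands at 27% higher and 11.7% lower. The right panel gives the same shares for ZNF genes and other genes, on chromosome 19 and on other chromosomes.

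Germline genes and clustered protocadherins are classes that H3K9 methylation can silence. Only 4 of 47 germline genes passed the low-count filter, and 2 of them rose, SYCP3 (19.1 to 45.8 CPM) and STK31. Among 3 tested clustered protocadherins (median log2 0.87) 1 rose, PCDHGC3, a call lost without vehicle replicate 2 or KRT20-positive replicate 1. HOX genes gave 2 higher and 6 lower of 29 (median log2 −0.25), HOXB9 rising 2.25-fold and HOXC8 falling (log2 −1.19). Long noncoding RNAs with LINC names rose in 28 and fell in 14 of 132 (median log2 0.28). LINC01468 had 22.4, 14.3 and 21.5 CPM in vehicle and 1.37, 0.796 and 0.655 CPM.

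Genes of double-stranded RNA sensing and the interferon response rose in 12 of 26 members and fell in 0 (median log2 0.40). OAS1, which senses double-stranded RNA, had 9.95, 9.82 and 7.06 CPM in vehicle and 42.5, 27.9 and 32.1 CPM, and 23.8, 27.2 and 21.8 CPM in scramble cells in differentiation medium. HERC5 rose 2.30-fold, the membrane tether BST2 1.93-fold and STAT2 1.54-fold. The sensor IFIH1 was not called at 4.28 and 5.85 CPM. The interferon genes IFNB1 and IFNL1 did not pass the filter. Antigen presentation genes rose in 10 of 19 members and fell in 1 (median log2 0.46; 6 rose without vehicle replicate 2 or KRT20-positive replicate 1), among them the immunoproteasome subunit PSMB8 (10.7 to 29.6 CPM). HLA-C fell by 0.41, and B2M stood at 873 and 825 CPM and was not called.

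Lysosome genes rose in 21 of 43 members and fell in 1 (median log2 0.22; the number lower was 2 or 3 with no low-count filter, with a replicate block, in the fit of the 2 groups alone or without KRT20-negative replicate 1 or 3). The cathepsin CTSS had 1.35, 0.672 and 1.07 CPM in vehicle and 16.7, 15.5 and 12.4 CPM. TFEB, which switches on lysosome genes, rose 3.91-fold and the peptidase TPP1 1.98-fold. In oxidative phosphorylation 24 of 86 genes rose and 5 fell (median log2 0.10), by at most 0.62 on the log2 scale among the called rises (NDUFA8, a subunit of complex I). Cytosolic ribosomal protein genes rose in 31 of 95 and fell in 3 (median log2 0.14; 1 fell without KRT20-positive replicate 2), with RPL37A and RPS29 at log2 0.61 and 0.57.

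Histone genes seen through polyadenylated transcripts fell in 11 and rose in 6 of 37 (median log2 −0.10; 3 rose without KRT20-positive replicate 1 or 3, and 10 in the fit of the 2 groups alone). H2AFX (log2 −0.86) and HIST1H4C (−0.58) fell, while H2AFJ rose 2.09-fold. Immediate early genes rose in 15 of 32 and fell in 3 (median log2 0.36), with IER2 at 432 and 666 CPM, while FOS was not called (129 and 125 CPM). The S100 family and metallothioneins rose in 6 and fell in 5 of 19 (median log2 0.55; 8 fell in the fit of the 2 groups alone). S100P rose 3.76-fold and S100A9 5.66-fold, and S100A16 fell by 1.19. Among 17 snoRNA host genes 3 rose and 5 fell (median log2 0.04), with SNHG1 at log2 −0.46 and SNHG8 at 0.36.

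A set of 15 genes went from at most 3 counts over the 3 vehicle libraries to at least 3 CPM in every KRT20-positive library, and 0 genes did the reverse. GPR37, a receptor of nerve tissue, had 1 vehicle count and 9.19, 10.7 and 10.6 CPM in KRT20-positive cells (ratio 225, 95% counting interval 40.02 to 8934). VNN3, a vanin pantetheinase, had 0 counts in vehicle and was at least 50.5-fold higher, and KIF19, a kinesin of cilia, had a ratio of 126 (95% counting interval 22.2 to 5011). Outside the lists, FFAR2, a receptor for short-chain fatty acids, had 0.246, 0 and 0.307 CPM in vehicle and 10.6, 13.1 and 12.6 CPM, and the monoamine oxidase MAOA rose 65.7-fold. On the lower side OLR1, a receptor for oxidised LDL, had 14.4, 13.3 and 15.8 CPM and 1.23, 1.33 and 1.70 CPM. The natriuretic peptide NPPB (log2 −4.61), the adhesion molecule CADM1 (−3.20), the serine protease PRSS23 (−3.15) and TCF4, a helix-loop-helix factor (−3.26), fell.

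Scramble cells in differentiation medium received both agonists without the SETDB1 hairpin, and the KRT20-positive cells were compared with them in the same fit. The comparisons share the KRT20-positive libraries, so values are given side by side and no overlap is counted. edgeR called 4820 genes (34.5%), 2508 higher in KRT20-positive cells (18.0%) and 2312 lower (16.6%). CYP24A1 (194 and 179.5 CPM in differentiation medium and KRT20-positive cells) had a log2 fold change of −0.11 (edgeR adjusted p = 0.443), and CPT1A (174 and 230.0 CPM) of 0.40 (edgeR adjusted p = 1.87e-04). GC (0.588 and 75.9 CPM), AFP (134 and 5695) and FCGBP (0.518 and 29.5) were higher in KRT20-positive cells. SLC2A3 (1551 and 77.9), TAGLN (87.1 and 5.26) and the cardiac repressor ANKRD1 (536 and 52.5) were lower.

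Against differentiation medium, liver-type plasma proteins had 23 of 26 higher and 0 lower, ZNF genes 151 of 417 and 7, and enteroendocrine genes 9 of 13 and 0. For genes near 0 in both scramble groups, the limit of the filter holds here too. Mitosis genes had 36 of 38 lower and 0 higher, ATF4 targets 24 of 34 and 0, and actin and YAP targets 20 of 32 and 1. Ribosomal protein genes had 3 higher and 15 lower of 95, and oxidative phosphorylation genes 7 and 24 of 86. At an unadjusted p under 0.05 the counts of 0 were 1 for liver-type genes and 0 for the others. Against vehicle the ribosomal protein and oxidative phosphorylation numbers had been 31 and 3, and 24 and 5.

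KRT20-negative cells are labelled with a SETDB1 hairpin as well and were sorted into the other fraction. edgeR called 570 genes between the fractions (4.08%), 321 higher in KRT20-positive cells (2.30%) and 249 lower (1.78%). With the replicate number as a block, 376 were lower. Without KRT20-positive replicate 1, 2 or 3, the total was 297, 358 or 305, and in the fit of the 2 groups alone 307. Without KRT20-negative replicate 3, whose fibroblast marker sum of 634 CPM compares with 36.8 and 48.9 in the other libraries of its group, the total was 651. The part of those cells in the differences was not tested.

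Between the fractions, CEACAM and surface glycoprotein genes had 9 of 19 higher and 0 lower, goblet genes 6 of 14 and 0, PPAR targets 9 of 47 and 0, and nutrient transporters 7 of 27 and 1. List counts were repeated under the other settings only against vehicle, so how far these depend on single libraries was not tested. LGALS4 had 1.37, 0.703 and 1.22 CPM in KRT20-negative and 10.8, 12.7 and 9.83 CPM in KRT20-positive cells (log2 3.32, SE 0.32, edgeR adjusted p = 2.45e-07). FCGBP had 4.45, 2.58 and 3.54 CPM in KRT20-negative cells against 29.5 here. CEACAM5 was higher by 2.79 and C15orf48, a small mitochondrial protein, by 1.90 on the log2 scale. LAMA1 had 22.8, 26.7 and 27.3 CPM in KRT20-negative and 3.29, 1.99 and 4.06 CPM in KRT20-positive cells, and NKD1 was lower (log2 −1.40).

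In the same comparison mitosis genes had 2 of 38 higher and 0 lower, replication genes 0 and 0 of 45, ATF4 targets 1 and 1 of 34, and ZNF genes 3 and 2 of 417. CDK1 had 175 CPM in KRT20-negative cells and 209.6 in KRT20-positive cells. Liver-type plasma proteins had 0 higher and 7 lower of 26: FGA had 371, 373 and 389 CPM in KRT20-negative and 174, 173 and 182 CPM in KRT20-positive cells. Crypt stem cell and Wnt targets had 0 higher and 7 lower of 31, with LGR5 at 11.1 and 5.75 CPM. At an unadjusted p under 0.05 the counts of 0 between the fractions were 3 and 2 for replication genes, 2 for liver-type genes higher, 1 for stem cell genes higher and 2 for goblet genes lower, and 0 for the others.

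**Figure D5:**
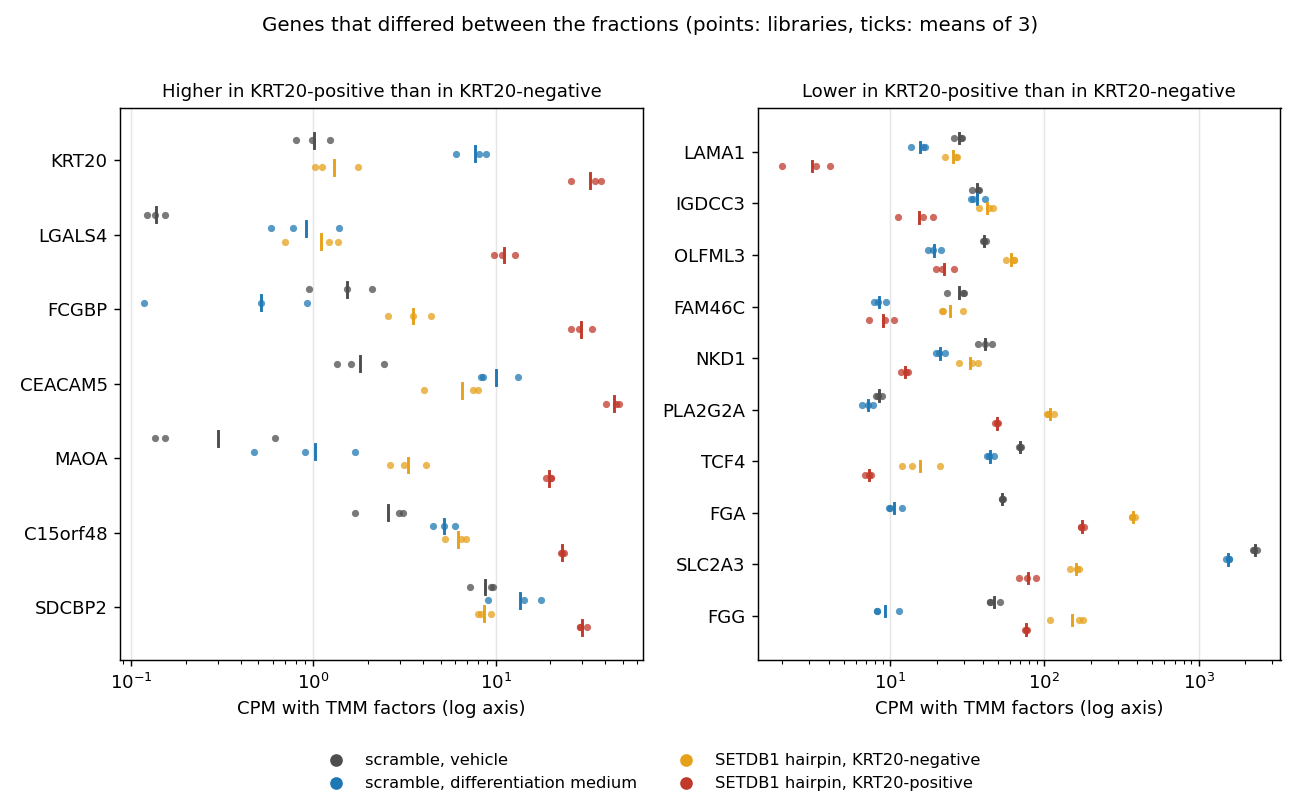
Level in CPM (log axis) in each of the 12 Caco2 libraries of genes among the largest differences between the KRT20-positive and KRT20-negative fractions, higher genes on one side and lower ones on the other. LGALS4, FCGBP and CEACAM5 are highest in the KRT20-positive points, and the KRT20-positive points of LAMA1 lie below all others.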

How the data were processed

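The authors deposited 1 table of raw counts per gene symbol for each library. Bowtie2, edgeR and hg19 are named in the submitters' processing notes; versions and tag assignment are not given in the sources used here. Of 25737 lines per table, 1561 repeated a symbol and were summed, which left 24462 symbols. The 12 Caco2 libraries were fitted together in 4 groups with edgeR 4.0.16 under R 4.3.3 (filterByExpr, TMM, robust quasi-likelihood F tests, Benjamini-Hochberg adjustment over 13968 genes, called at 0.05), as the shared groups add degrees of freedom. SE is the log2 fold change over the square root of F, and a fold change is a ratio of mean CPM, given with SD of 3 libraries. A fold against 0 counts used 3 counts over the group; against 1 to 3 counts a 95% counting interval is given. On simulated data, edgeR called 94 of 100 genes changed 2-fold, 99 of 100 changed 4-fold and 9 of 13566 unchanged, in a fit of 13766 genes. The changed genes were drawn only from those above the lowest levels, and far fewer changed than were called in the data. These numbers therefore do not cover genes of low level or a response of this extent.

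The members and gene lists were chosen with earlier results of these data known. Genes named are SETDB1 and KRT20, the 15 genes called each way with the greatest fold change (10 CPM or more, no overlap), the 12 each way with the largest CPM difference, 10 with at most 3 counts in one group, 6 per list with the smallest adjusted p plus anchors fixed in the lists, and 10 per direction for each comparator; some such genes are not reported here, and others are marked. Same-numbered KRT20-negative and KRT20-positive libraries deviated together (r = 0.1912, 0.1602 and 0.1004 across 9422 genes), so the blocked count is given for that comparison. Positions are GENCODE 29 and promoters RefSeq GRCh38.p14; the tables' build was hg19, so no coordinate was taken from them. Elements of VDR, SREBP, HNF1 and HNF4 were searched too, in their own lists, and matched 0 of 14, 1 of 30, 0 of 22 and 1 of 22 promoters. Scaling by RLE or by library totals, testing without the low-count filter, DESeq2 1.42.0, a replicate block, the 2 groups alone, and each library left out were the alternatives.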

Additional observations from a re-analysis of the deposited data

How the results depend on the processing

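For KRT20-positive against vehicle, calls ran from 4426 to 6013 with 1 library left out (higher 2252 to 2995, lower 2156 to 3018). Higher and lower calls were 2670 and 2601 with RLE size factors, 2783 and 2407 with library totals, 2672 and 2680 without the low-count filter, 2489 and 2423 with DESeq2, and 3000 and 2909 in the fit of the 2 groups alone. Over these settings and the block, 81.4% to 99.9% of the main calls were kept in direction, and 0 changed sign. Against differentiation medium the total ran from 3976 to 5655 (higher 2026 to 2793, lower 1921 to 2862). Between the fractions it ran from 297 to 651 (higher 192 to 376, lower 96 to 275), and in the fit of the 2 groups alone it was 307 (212 higher, 95 lower), a fit with fewer samples. Of the main calls between the fractions, 53.3% were kept in that fit. Without KRT20-positive replicate 1, 2 or 3, the share kept was 50.2%, 59.3% or 52.6%. SETDB1 ran from −0.53 to −0.33 on the log2 scale with 1 library left out (edgeR adjusted p 0.00542 to 0.081, the highest without KRT20-positive replicate 1), and KRT20 from 4.89 to 5.17. Same-numbered vehicle and KRT20-positive libraries correlated in their deviations at 0.05458, 0.2498 and 0.1525. Same-numbered libraries of the other group pairs also correlated positively, as in vehicle and differentiation medium (0.09451, 0.2496 and 0.1605). The main fit left the replicate number out, and the labels do not say what it stands for. Each KRT20-positive library correlated best with the vehicle library of its own number except replicate 1, which did so as much with vehicle replicate 3 (0.05459). With a replicate block 2885 genes were higher and 2802 lower against vehicle, and between the fractions 376 were lower. Low counts limit genes under about 3 counts a library, where the floor is 0.368 to 0.460 CPM.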

Other observations

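Some genes that rose by 2-fold or more lay side by side. Counting runs of at least 3 neighbouring tested genes called in 1 direction by at least 2-fold, on GENCODE 29 positions, 31 runs with 118 genes rose and 5 runs with 19 genes fell. The longest rising runs held 9 zinc finger genes on chromosome 19, from ZNF175 to ZNF841 (median log2 2.17), and 8 genes on chromosome 4, from UGT2B17 to SULT1E1, which conjugate steroids and bile acids (median 2.84). Shorter runs held the 4 AKR1C genes with TUBAL3 (3.36), GSTA2, GSTA1, GSTA5 and GSTA4 (2.91), and CXCL1, CXCL5, CXCL3 and CXCL2 (2.61). The longest falling run held 6 genes on chromosome 10, from ANXA8L1 to ANXA8 (median −2.24). Neighbouring paralogs share sequence, the runs were looked for after the values were seen, and no test was made of their number.

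In a cluster on chromosome 4, AFP, ALB and GC rose while AFM, the fourth member of the albumin family, went from 48 counts over the vehicle libraries to 2 over the KRT20-positive ones (ratio 24.4, 95% counting interval 6.40 to 207). AFM and the dopamine receptor DRD2 (51 counts to 1, ratio 51.9) were chosen after their values were seen. The counting interval leaves out the spread among libraries, and no edgeR result is reported for either gene.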
